A study of Mus musculus with 21 samples.

Results

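DNA methylation at collagen genes was compared between synovial fibroblasts of arthritic and healthy mice. Synovial fibroblasts are the matrix-producing cells that line the joint, and in inflammatory arthritis they invade cartilage and bone. The collagen regions were all regions, in the 4 tables of differentially methylated regions, whose annotated gene name consisted of Col, a number, the letter a and a number. This rule found 113 regions among the 49307 listed, at 30 genes of the 44 RefSeq collagen genes with such a name. The groups were Tg197 fibroblasts at 3, 8 and 11 weeks, each set against WT fibroblasts of the same age, and WT fibroblasts treated with TNF at 8 weeks, set against the untreated WT fibroblasts of 8 weeks. Tg197 is a TNF transgenic line with inflammatory polyarthritis, and the WT mice lack the transgene. The mice were of CBA x C57BL/6J background and the cells were at passages 4 to 5, with 3 samples in each of the 7 groups. The dose and duration of the TNF treatment, and whether the 3 samples of a group came from separate mice, are not stated in the labels, so p-values measure the spread between these samples only.

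Collagens are proteins of the extracellular matrix in which 3 chains wind into a triple helix. Fibrillar collagens assemble into the banded fibrils that give tissue its tensile strength, and type IV collagens form the network of basement membranes. FACIT collagens (fibril-associated collagens with interrupted triple helices) sit on the surface of fibrils and link them to other matrix components. The remaining members include transmembrane collagens, the multiplexins XV and XVIII, the beaded filaments of type VI, the anchoring fibrils of type VII and the networks of types VIII and X. In the joint, fibroblasts make mainly types I, III, V and VI, while types II, IX, X and XI are hallmarks of cartilage. DNA methylation is the addition of a methyl group to cytosine, mostly before guanine (CpG). In promoters it accompanies silencing, and in gene bodies it is common in both active and inactive genes.

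Methylation was measured by MethylCap-seq, in which sonicated DNA bound by a methyl-CpG-binding protein is sequenced, so that more reads in a region mean more captured methylated DNA. Values are the authors' normalized reads, given here for single libraries in the order of the deposited cells. The tables list only regions that the authors had chosen, so each test is a retest of chosen regions, and a gene without a listed region has no value. The authors' adjusted p was not under 0.05 at every listed region. At 3 weeks it was 0.185 at Col18a1 and 0.0539 at 1 Col6a6 region. It was also above 0.05 at Col27a1 and at the other Col6a6 region of that age. The libraries held from 385155 to 2875554 reads in the listed regions. TNF-treated libraries 1 and 2 held identical values at every region and were counted as 1 sample, so that this group has n = 2, and only libraries 1 and 3 are given. Differences are log2 fold changes of value + 1, with a limma test adjusted over all regions of the table and a threshold of 0.05. Gene expression was not measured in these files, so no collagen level and no marker of the cell type could be set beside the methylation values.

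The 113 regions fell on 8 of 11 fibrillar genes (30 regions), 5 of 6 type IV genes (18 regions), 6 of 9 FACIT genes (22 regions) and 11 of 18 other collagen genes (43 regions). Long genes held the most, with 10 regions in Col23a1, whose longest transcript spans 294.0 kb, and 9 in Col25a1, with 414.3 kb. Within gene bodies lay 110 of the 113 regions, and 3 lay within 3 kb of a transcription start. Intergenic regions carry no gene name, so the rule cannot find them. Among other regions with a gene name, the gene-body share was between 84.0% and 89.2% in the 4 tables. In 5 genes (Col5a3, Col11a2, Col23a1, Col25a1 and Col6a6) all 4 tables listed a region, in 12 genes 3 tables did, in 2 genes 2 tables and in 11 genes 1 table. No region was listed under the RefSeq names of 14 genes, among them Col1a1, Col3a1 and Col5a2, which encode chains of the main fibrils of connective tissue, and Col6a1 to Col6a5. The annotation uses older symbols for some genes, so a region listed under an earlier name would be missed.

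Direction changed with the comparison. At 3 weeks 16 of 28 collagen regions were higher in Tg197 and 7 lower, at 8 weeks 4 of 19 were higher and 10 lower, at 11 weeks 11 of 21 were higher and 7 lower, and after TNF 8 of 45 were higher and 35 lower, all by limma. The share of all listed regions that passed in either direction was 85% at 3 weeks, 54% at 8 weeks, 77.9% at 11 weeks and 93.8% in the TNF table. The median log2 fold change of the collagen regions was 0.64 at 3 weeks, -1.19 at 8 weeks, 0.90 at 11 weeks and -1.34 after TNF, beside -0.09, -1.02, 0.84 and -1.18 over gene-body regions of other genes and -0.12, -0.22, 0.76 and -1.09 over all regions of the same tables. At 8 and 11 weeks and after TNF the collagen medians lay near those of other gene bodies. Of the 30 genes, 15 had regions passing in both directions when the 4 tables were pooled, and these tables differ in the sign of their medians. Within a single table, 1 gene had both directions at 3 weeks, 0 at 8 weeks, 2 at 11 weeks and 5 after TNF. No such count is given for other genes.

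**Figure D1:**
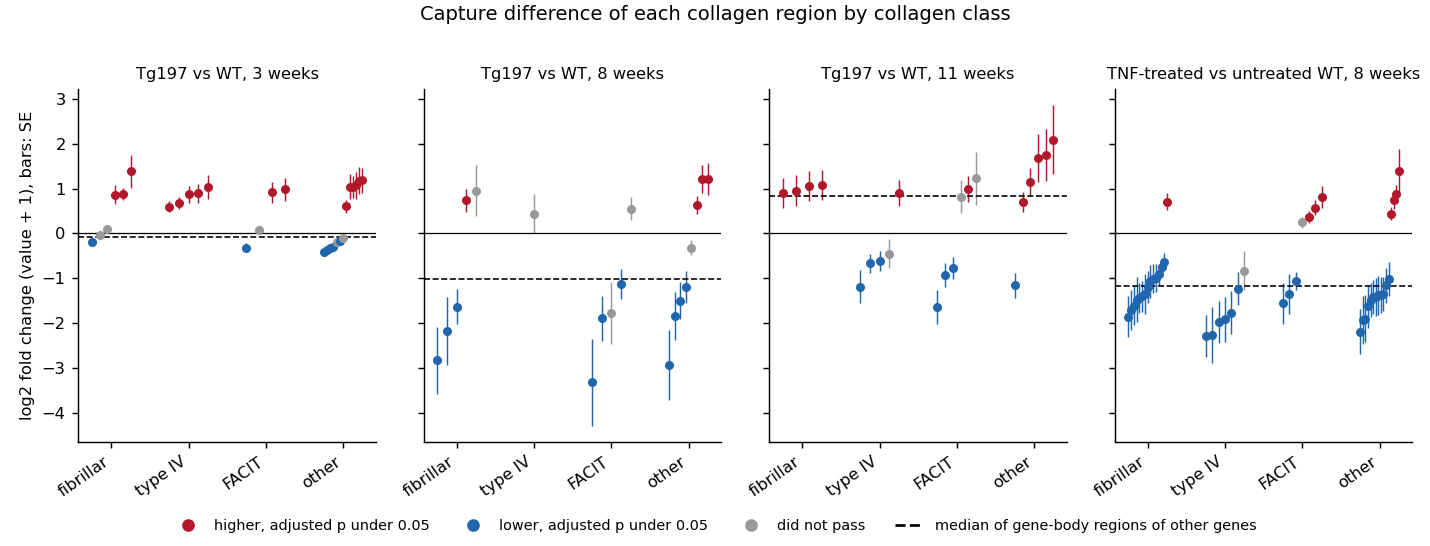
Log2 fold change (value + 1) of each of the 113 collagen regions, Tg197 over WT or TNF-treated over untreated, by collagen class and table. Bars are standard errors, red and blue points passed limma, grey points did not, and dashed lines mark the median of gene-body regions of other genes (-0.09, -1.02, 0.84 and -1.18). All 5 type IV regions of 3 weeks lie above 0, all 4 fibrillar regions of 11 weeks lie above 0, and 14 of 15 fibrillar regions of the TNF table lie below 0.

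Tg197 against WT at 3 weeks compares cells of the youngest mice. Gains at collagen genes spread over all 4 classes, and the type IV genes, which encode basement membrane chains, were higher at every listed region. Of the 28 regions 57.1% were higher and 25% lower, against a background of 40.3% higher and 44.7% lower over all listed regions, and 42.5% and 42.2% in gene bodies of other genes. The groups did not overlap at 25 of the 28 regions, as at 86.1% of all listed regions. Counts changed little with the omission of 1 library (21 to 23 of 28 regions passed), and the 16 gains passed in each case. The losses were small, between -0.41 and -0.16 on the log2 scale, and with a minimum log2 change of 0.5 the call was 16 higher and 0 lower. At 7 of the 28 regions (37.2% of all) the authors' p lay more than 10 times below what counting error of the reads alone allows. None of the gains was among these 7. The same held for 1 of 19 collagen regions at 8 weeks (6.7% of all), 0 of 21 at 11 weeks (0.835% of all) and 3 of 45 in the TNF table (8.18% of all).

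The type IV gains at 3 weeks lay in 3 genes. Col4a1 and Col4a2 are neighbouring genes on chromosome 8 that encode the 2 chains of the commonest basement membrane network. At Col4a1, 98.00 kb into the gene (chromosome 8, positions 11214551 to 11215100, mm9), Tg197 libraries held 89.6, 80.1 and 94.95 normalized reads, against 52.6, 60.6 and 51.1 in WT (log2 fold change 0.68 ± 0.14 SE, limma adjusted p = 0.00183). Each Tg197 library lay above each WT library. Col4a2 rose at 3 places. At 34.55 kb from its start, Tg197 libraries held 60.5, 69.8 and 88.03, against 33.8, 38.01 and 45.4 in WT (log2 fold change 0.87 ± 0.19 SE, limma adjusted p = 0.0019). At 68.77 kb, Tg197 libraries held 76.7, 71.7 and 78.1, against 33.8, 32.6 and 59.1 in WT, and at 96.92 kb they held 39.96, 33 and 32.6, against 22.5, 16.3 and 12.5 in WT. The groups were apart at all 3 places, with log2 fold changes of 0.87, 0.89 and 1.03. Col4a4, which encodes a chain of specialised basement membranes such as that of the kidney, had 104, 126 and 101 normalized reads in Tg197 and 79.8, 68.8 and 68.2 in WT at 9.65 kb from its start. This gain had a log2 fold change of 0.60 ± 0.13 SE (limma adjusted p = 0.00195), and the groups did not overlap. Within 1 Mb of the Col4a2 regions 5 other regions were listed as higher and 4 as lower.

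Among fibrillar genes at 3 weeks, 3 of 6 regions rose and 1 fell. Col5a3, a minor chain of type V collagen that helps start fibrils, gained 14.73 kb from its start, where Tg197 libraries held 122, 111 and 103 normalized reads and WT libraries 54.5, 72.4 and 55.7 (log2 fold change 0.88 ± 0.14 SE, limma adjusted p = 0.00146). No Tg197 library lay as low as a WT library. Col24a1, a fibrillar collagen of bone and cornea, rose at 2 places, with 23.8, 18.9 and 19.8 in Tg197 against 11.3, 3.62 and 9.09 in WT at 49.54 kb and 50.8, 45.3 and 65.3 in Tg197 against 31.9, 23.5 and 31.8 in WT at 226.29 kb (log2 fold changes 1.39 and 0.86). The groups were apart at both. Col11a2, which encodes a cartilage fibril chain, had 156, 155 and 136 in Tg197 against 177, 169 and 166 in WT (log2 fold change -0.20 ± 0.09 SE, limma adjusted p = 0.043). This loss was small beside its level, and it did not pass when any 1 of 5 libraries was left out (Tg197 library 2 or 3, or any WT library). Col2a1, the main cartilage fibril gene, had 225, 230.1 and 249 in Tg197 against 208, 224 and 224 in WT and did not pass (limma adjusted p = 0.203). Nor did Col27a1, with 258, 255 and 252 in Tg197 against 252, 275 and 252 in WT (limma adjusted p = 0.726).

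Of the 4 FACIT regions at 3 weeks, 2 rose and 1 fell. Col9a1, a cartilage chain that decorates type II fibrils, had 41.04, 70.7 and 68.2 normalized reads in Tg197 against 37.6, 23.5 and 31.8 in WT (log2 fold change 0.92 ± 0.24 SE, limma adjusted p = 0.00301). Col12a1, found on fibrils of tendon and ligament, had 31.3, 45.3 and 43.5 in Tg197 against 23.5, 19.9 and 15.9 in WT, a log2 fold change of 0.98. In both genes the lowest Tg197 library lay above the highest WT library. Col14a1, a regulator of fibril diameter, carried more reads than the other collagen regions of this table and had 459, 431 and 469.8 in Tg197 against 675, 484 and 545 in WT (log2 fold change -0.31 ± 0.09 SE, limma adjusted p = 0.00626). The groups did not overlap, but WT library 1 stood high, and without it the log2 fold change was -0.18. Col19a1 did not pass, with 256, 269.7 and 273 in Tg197 against 260.1, 254 and 245 in WT (limma adjusted p = 0.322).

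The 13 regions of other collagens at 3 weeks gave 6 gains and 5 losses, and a single gene held both kinds. Col23a1, a transmembrane collagen, rose at 135.20 kb, 243.18 kb and 268.55 kb from its start and fell at 147.00 kb and 230.38 kb. At the gain of 243.18 kb, Tg197 libraries held 28.1, 27.3 and 24.7 and WT libraries 11.3, 9.95 and 12.5 (log2 fold change 1.18 ± 0.27 SE, limma adjusted p = 0.00233). At the loss of 147.00 kb, Tg197 libraries held 342, 364 and 344 and WT libraries 461, 422 and 420.3 (log2 fold change -0.31 ± 0.07 SE, limma adjusted p = 0.00193). Each was free of overlap, the gain at a low read level and the loss at a high one. A region beside that loss had 389, 395 and 344 in Tg197 against 407, 417 and 381 in WT and did not pass. The remaining gains of Col23a1 had log2 fold changes of 1.04 and 1.04, and the remaining loss -0.32. Col25a1, a transmembrane collagen of neurons and muscle, rose at 2 places (log2 fold changes 0.60 and 1.07), the stronger with 28.1, 22.6 and 28.7 in Tg197 against 8.45, 16.3 and 12.5 in WT. Col7a1, the anchoring fibril collagen, had 32.4, 49.03 and 27.7 in Tg197 against 21.6, 12.7 and 12.5 in WT (log2 fold change 1.17 ± 0.29 SE, limma adjusted p = 0.00275). All of these gains had groups that did not overlap. Col6a6, a chain of the type VI beaded filament, fell at both of its regions. One had 171, 166 and 172 in Tg197 against 212, 216 and 234 in WT (log2 fold change -0.38), and the other had a log2 fold change of -0.16 and a call that did not pass when Tg197 library 1, Tg197 library 2, WT library 1 or WT library 3 was left out. Col10a1, a marker of hypertrophic cartilage, had 133, 152 and 155 in Tg197 against 174, 171 and 158 in WT and did not pass (limma adjusted p = 0.0548).

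Tg197 against WT at 8 weeks gave mostly losses at collagen genes, in regions with few reads, as it did in gene bodies of other genes. Of the 19 regions 21.1% were higher and 52.6% lower, against a background of 17.4% higher and 36.6% lower over all listed regions, and 12.5% and 47.3% in gene bodies of other genes. Values did not overlap at 15 of the 19 regions, as at 69.6% of all listed regions. Passing at this age turned on the adjustment over the whole table. With limma, 0 of 19 collagen regions passed when Tg197 library 1, Tg197 library 3, WT library 1 or WT library 2 was left out, while 14, 12, 11 and 12 regions had an unadjusted p under 0.05. In the same 4 cases 0 regions of the whole table passed, against 6470 with all libraries. Of the 14 collagen regions that passed, Col5a3 without Tg197 library 1 was the only one whose log2 fold change moved by over 1.5 times in these cases. With 0.1 added in place of 1 before the log, 0 of 19 passed and 14 had an unadjusted p under 0.05. Limma voom on the read numbers of all libraries called 12. Tg197 library 2 stood nearer to WT than the other Tg197 libraries, with a median log2 ratio to the WT mean of -1.29 over the 12 collagen regions listed as lower, against -1.99 in library 1 and -2.11 in library 3. Without library 2, 18 of 19 regions passed. WT library 3 was the low one among the WT libraries, with 1 of these 12 regions above the WT mean, against 11 for library 1 and 10 for library 2.

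**Figure D2:**
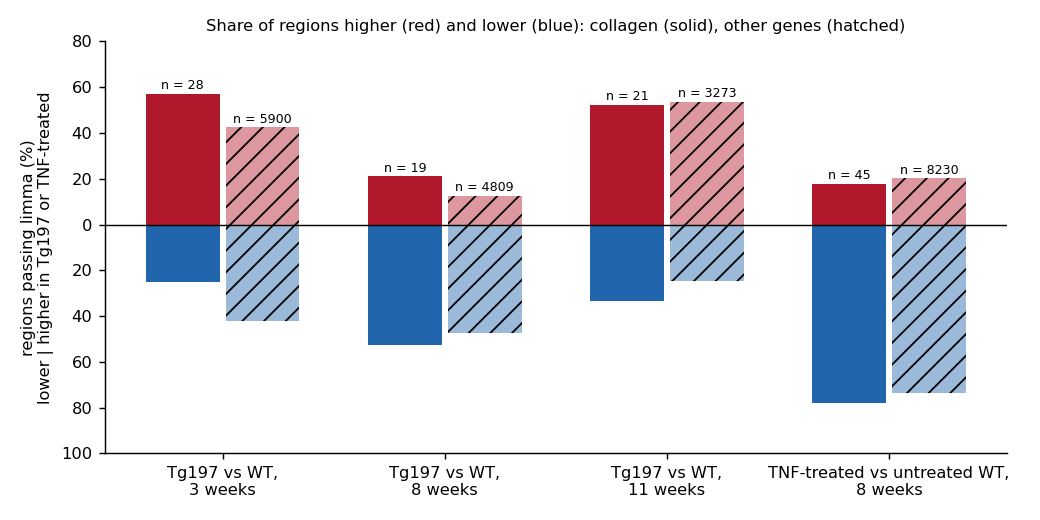
Share of regions (%) that passed limma as higher (red, upward) or lower (blue, downward) in Tg197 or TNF-treated fibroblasts than in WT, for collagen regions (solid) and gene-body regions of other genes (hatched), with the number of regions above each bar. Collagen shares were 57.1% and 25% at 3 weeks, 21.1% and 52.6% at 8 weeks, 52.4% and 33.3% at 11 weeks, and 17.8% and 77.8% in the TNF table.

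Among fibrillar genes at 8 weeks, 3 of 5 regions fell and 1 rose. Col11a2 had 0, 4.15 and 0 normalized reads in Tg197 against 12.7, 14.2 and 7.74 in WT (log2 fold change -2.82 ± 0.74 SE, limma adjusted p = 0.0428). Reads were absent from 2 of the 3 Tg197 libraries there, so the size of this change depends on the added 1. Col11a2 lies in a stretch of chromosome 17 (34 to 36 Mb) in which 64 of 71 listed regions were lower in Tg197 at this age. Col5a3 fell at 29.98 kb from its start, downstream of the place that rose at 3 weeks, with 0, 4.15 and 5.88 in Tg197 against 15.2, 15.7 and 11.1 in WT (log2 fold change -2.18 ± 0.76 SE, limma adjusted p = 0.0469). The groups did not overlap, and without Tg197 library 1 the log2 fold change was -1.32. Col24a1 had 3.98, 6.23 and 4.41 in Tg197 against 17.8, 16.5 and 16.6 in WT, with both groups tight and a log2 fold change of -1.63 ± 0.39 SE (limma adjusted p = 0.0428). Col27a1, a fibrillar collagen of cartilage, rose at 57.88 kb, with 66.3, 51.9 and 82.4 in Tg197 against 40.6, 33.7 and 43.1 in WT (log2 fold change 0.74 ± 0.25 SE, limma adjusted p = 0.0453). Nearer its start the values overlapped, with 30.5, 13.8 and 67.7 in Tg197 against 15.2, 12.7 and 18.8 in WT (limma adjusted p = 0.155).

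FACIT genes at 8 weeks fell at 3 of 5 regions, and the other two did not pass. Col14a1 had 10.6, 0 and 0 normalized reads in Tg197 against 16.9, 23.97 and 24.3 in WT (log2 fold change -3.31 ± 0.96 SE, limma adjusted p = 0.0428). Every WT library lay above every Tg197 library, and 2 Tg197 libraries held no read. Col16a1, found at dermal and cartilage fibrils, fell at 2 places. At the first, Tg197 libraries held 18.6, 43.6 and 29.4, against 71.9, 64.4 and 56.4 in WT (log2 fold change -1.12 ± 0.34 SE), and at the other 3.98, 12.5 and 4.41, against 30.4, 28.5 and 18.8 in WT (log2 fold change -1.89 ± 0.50 SE), both at a limma adjusted p of 0.0428. The groups were apart at both, and 19 of the 20 other regions listed within 1 Mb were lower in Tg197. Col9a1 had 163, 92.03 and 153 in Tg197 against 84.6, 82.4 and 103 in WT and did not pass (limma adjusted p = 0.0892).

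Other collagens at 8 weeks gave 4 losses and 3 gains among 8 regions. The hemidesmosomal transmembrane collagen Col17a1 fell at 2 places, with 5.30, 4.84 and 2.94 in Tg197 against 14.4, 14.98 and 12.2 in WT at the 3' one (log2 fold change -1.49 ± 0.41 SE) and 11.9, 22.8 and 11.8 in Tg197 against 35.5, 37.5 and 32.05 in WT at the 5' one (log2 fold change -1.19 ± 0.36 SE), both at a limma adjusted p of 0.0428. Col7a1 had 0, 4.84 and 0 in Tg197 against 16.9, 13.5 and 8.84 in WT (log2 fold change -2.92 ± 0.78 SE), again with no read in 2 Tg197 libraries. Col23a1 had 3.98, 7.61 and 2.94 in Tg197 against 34.7, 14.2 and 13.3 in WT, a log2 fold change of -1.84. The groups did not overlap at any of these 4 losses. Gains were seen at Col8a1, a chain of the short-chain network of vessels and cornea, with 53.02, 58.8 and 36.8 in Tg197 against 26.2, 16.5 and 19.9 in WT (log2 fold change 1.21 ± 0.32 SE, limma adjusted p = 0.0428), and at 2 places of Col25a1. The stronger of those had 51.7, 28.4 and 47.1 in Tg197 against 13.5, 22.5 and 16.6 in WT (log2 fold change 1.21), and the other 164, 125 and 171 in Tg197 against 83.7, 97.4 and 112 in WT (log2 fold change 0.64). At these 3 gains too, no Tg197 library lay as low as a WT library. Col6a6 had 146, 129 and 147 in Tg197 against 178, 184 and 162 in WT and did not pass (limma adjusted p = 0.111).

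The only type IV region of 8 weeks lay in Col4a6 on the X chromosome and did not pass. Tg197 libraries held 207, 57.4 and 97.1 normalized reads, against 72.7, 72.7 and 86.2 in WT (log2 fold change 0.44 ± 0.43 SE, limma adjusted p = 0.349). Tg197 library 1 stood far above the rest and library 2 lay below the WT libraries, and without library 1 the log2 fold change was -0.04. On the X chromosome 926 of 981 listed regions were higher in Tg197 at this age, and the part of that in the Col4a6 value was not tested.

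Tg197 against WT at 11 weeks gave gains at every fibrillar region and mixed changes elsewhere. Of the 21 regions 52.4% were higher and 33.3% lower, against a background of 49.7% higher and 28.2% lower over all listed regions, and 53.6% and 24.7% in gene bodies of other genes. No overlap was seen at 19 of the 21 regions, as at 83.7% of all listed regions. As at 8 weeks, passing turned on the adjustment over the whole table. With limma, 0 of 21 passed without Tg197 library 1, without Tg197 library 3 or without WT library 2, when 14, 15 and 16 regions had an unadjusted p under 0.05, and limma voom on all libraries called 17. In these cases 10, 0 and 0 regions of the whole table passed, against 5694 with all libraries. Of the 18 collagen regions that passed, Col11a2 without Tg197 library 3 was the only one whose log2 fold change moved by over 1.5 times in these cases. Leaving out Tg197 library 2 moved 2 others by that much, and leaving out WT library 1 moved 1. Tg197 library 3 stood farthest from WT, with a median log2 ratio to the WT mean of 1.56 over the 13 collagen regions listed as higher, against 1.01 in library 1 and 0.60 in library 2.

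The 4 fibrillar regions at 11 weeks lay in 4 genes, and all rose. Col2a1 had 35.9, 37.8 and 44.8 normalized reads in Tg197 against 12.2, 16.8 and 28.3 in WT (log2 fold change 1.08 ± 0.33 SE, limma adjusted p = 0.0219). The lowest Tg197 library lay above the highest WT library. Col5a3 gained at the same place as at 3 weeks, with 77.4, 45.8 and 119.8 in Tg197 against 36.7, 33.5 and 37.03 in WT (log2 fold change 1.05 ± 0.33 SE, limma adjusted p = 0.022). WT libraries were tight here and Tg197 libraries spread widely, yet without overlap. Col11a1, a cartilage fibril chain that sets fibril width, had 44.7, 77.9 and 31.04 in Tg197 against 21.8, 22.3 and 29.2 in WT (log2 fold change 0.95 ± 0.35 SE, limma adjusted p = 0.0319), and Col11a2 had 45.5, 45.8 and 93.1 in Tg197 against 24.5, 35.4 and 33.1 in WT (log2 fold change 0.90 ± 0.33 SE, limma adjusted p = 0.031). In both, 1 Tg197 library stood well above the other two. Without Tg197 library 2 the log2 fold change of Col11a1 was 0.60, and without Tg197 library 3 that of Col11a2 was 0.56. Within 1 Mb, 5 other regions were listed as higher and 0 as lower at Col11a1, and 6 and 0 at Col11a2. At Col2a1 these counts were 11 and 4, and at Col5a3 4 and 6. In the stretch of chromosome 17 that holds Col11a2 (34 to 36 Mb), 9 of 10 listed regions were higher at this age. The part of the neighbourhood in these gains was not tested.

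Type IV regions at 11 weeks went mainly the other way from 3 weeks, with 3 losses and 1 gain among 5, at places that did not overlap those of 3 weeks; the difference between the ages was not tested. Col4a2 had 81.4, 90.5 and 85.3 normalized reads in Tg197 against 169, 123 and 123 in WT at 82.82 kb (log2 fold change -0.67 ± 0.22 SE, limma adjusted p = 0.0234), and 58.2, 68.7 and 51.7 in Tg197 against 84.3, 94 and 95.5 in WT at 118.60 kb (log2 fold change -0.61 ± 0.22 SE, limma adjusted p = 0.0277). Neither place had overlapping groups. Col4a4 carried both directions. At 106.65 kb from its start, Tg197 libraries held 33.5, 11.4 and 27.6, against 50.3, 47.5 and 56.5 in WT (log2 fold change -1.18 ± 0.38 SE), and without Tg197 library 2 the log2 fold change was -0.74. At 89.55 kb, Tg197 libraries held 46.3, 34.4 and 36.2, against 19.04, 26.1 and 16.6 in WT (log2 fold change 0.90 ± 0.28 SE). The loss and the gain each had groups that did not overlap. A further Col4a4 region with 274, 257 and 235 in Tg197 against 586, 263 and 273 in WT did not pass, and WT library 1 stood far above the rest there (limma adjusted p = 0.2).

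FACIT genes at 11 weeks gave 3 losses and 1 gain among 6 regions. Col14a1 had 5.58, 5.73 and 4.31 normalized reads in Tg197 against 17.7, 19.6 and 17.5 in WT (log2 fold change -1.64 ± 0.38 SE, limma adjusted p = 0.0219), with both groups tight and far apart. Col16a1 had 63.03, 38.9 and 42.2 in Tg197 against 70.7, 86.6 and 85.8 in WT (log2 fold change -0.77 ± 0.25 SE, limma adjusted p = 0.0235). Col12a1 fell at 19.53 kb, with 33.5, 29.8 and 32.8 in Tg197 against 88.4, 53.98 and 48.7 in WT (log2 fold change -0.92), and rose at 79.13 kb, with 44.7, 33.2 and 55.2 in Tg197 against 23.1, 16.8 and 25.3 in WT (log2 fold change 0.99). No values overlapped at these 4 regions. Col9a1, with 56.6, 34.4 and 103 in Tg197 against 32.6, 32.6 and 33.1 in WT, and Col19a1, with 19.1, 12.6 and 75.01 in Tg197 against 8.16, 10.2 and 14.6 in WT, did not pass (limma adjusted p = 0.0604 and 0.0754). In both, Tg197 library 3 stood well above the other two.

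Other collagens at 11 weeks gave 5 gains and 1 loss among 6 regions. Col25a1 had 12.8, 11.4 and 15.5 normalized reads in Tg197 against 0, 6.52 and 3.90 in WT at 52.23 kb (log2 fold change 2.09 ± 0.76 SE, limma adjusted p = 0.0319), and 10.4, 12.6 and 16.4 in Tg197 against 1.36, 2.79 and 6.82 in WT at 84.41 kb (log2 fold change 1.75 ± 0.58 SE, limma adjusted p = 0.0239). WT library 1 held no read at the first place, and without it the log2 fold change there was 1.22. Col23a1 had 16.8, 13.7 and 25 in Tg197 against 8.16, 1.86 and 6.82 in WT (log2 fold change 1.68 ± 0.54 SE, limma adjusted p = 0.0223). Col18a1, a multiplexin whose C-terminal fragment is endostatin, had 63.8, 62.99 and 76.7 in Tg197 against 36.7, 44.7 and 41.9 in WT (log2 fold change 0.71). Col8a2 fell, with 19.1, 32.1 and 18.97 in Tg197 against 57.1, 48.4 and 49.7 in WT (log2 fold change -1.15 ± 0.28 SE, limma adjusted p = 0.0219). The groups were apart at all of these regions.

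TNF-treated against untreated WT fibroblasts asks what TNF itself does to WT cells, and losses were the rule at collagen genes as in gene bodies of other genes. Of the 45 regions 17.8% were higher and 77.8% lower, against a background of 29.8% higher and 64.1% lower over all listed regions, and 20.2% and 73.4% in gene bodies of other genes. Treated and WT values were apart at 44 of the 45 regions, as at 95.8% of all listed regions. Fibrillar genes fell at 14 of 15 regions, type IV genes at 6 of 7, FACIT genes at 3 of 7 and other collagens at 12 of 16. The WT libraries are those of the 8-week comparison, so these tables are not independent, and only 2 distinct TNF-treated libraries were there. With limma, 27 of 45 passed (3 higher, 24 lower) without the identical pair, 35 without TNF-treated library 3, 36 without WT library 1 and 33 without WT library 2.

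Fibrillar losses after TNF covered 7 genes. Col1a2, which encodes a chain of type I collagen, the main product of fibroblasts, had its only listed region near its 3' end (chromosome 6, positions 4489201 to 4489700, mm9), with 21.9 and 16.1 normalized reads in TNF-treated libraries 1 and 3, against 52.2, 60.9 and 27.03 in WT libraries (log2 fold change -1.19 ± 0.36 SE, limma adjusted p = 0.012). WT library 3 came closest to the treated libraries, without overlap, and the call was lost without TNF-treated library 3. Col5a1, the main type V chain, fell at 2 places, with 18.9 and 9.92 in TNF-treated against 46.2, 35.04 and 36.9 in WT at 75.88 kb (log2 fold change -1.44 ± 0.33 SE, limma adjusted p = 0.0109) and 9.95 and 18.6 in TNF-treated against 37.7, 31.2 and 22.1 in WT at 131.01 kb, where the log2 fold change of -1.07 became -0.65 and did not pass without the identical pair. Col5a3 had 3.98 and 3.72 in TNF-treated against 15.4, 16.8 and 12.3 in WT (log2 fold change -1.70). Col2a1 fell at 2 places, with 3.98 and 3.72 in TNF-treated against 14.6, 14.5 and 12.3 in WT and 3.98 and 2.48 in TNF-treated against 13.7, 13.7 and 14.7 in WT (log2 fold changes -1.60 and -1.85). At each of these places the treated values lay under the WT values, and they came closest at 131.01 kb of Col5a1. Col27a1 fell at 4 places over its length, with log2 fold changes of -0.63, -1.40, -0.75 and -0.91 from 5' to 3'. The second of these had 10.9 and 12.4 in TNF-treated against 46.2, 25.9 and 28.3 in WT. The calls at 8.76 kb and 98.03 kb moved with single libraries, to -0.41 without the identical pair and to -0.40 without TNF-treated library 3, and then did not pass. Col11a2 had 15.9 and 21.1 in TNF-treated against 47.95, 41.9 and 27.03 in WT (log2 fold change -1.01 ± 0.32 SE), and did not pass without the identical pair or without WT library 1.

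Col24a1 held the exception among the fibrillar genes. It fell at 21.34 kb, 155.27 kb and 200.84 kb from its start (log2 fold changes -0.99, -1.34 and -1.48), and each of these losses missed the threshold without the identical pair and without WT library 2. It rose at 238.24 kb, with 85.6 and 88.03 normalized reads in TNF-treated libraries, against 61.6, 51.04 and 46.7 in WT (log2 fold change 0.71 ± 0.19 SE, limma adjusted p = 0.0109). The treated values lay above all WT values, and within 1 Mb 4 other regions were listed as higher and 19 as lower.

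Type IV losses after TNF covered all 4 type IV genes with a region in that table. Col4a1 had 1.99 and 3.72 normalized reads in TNF-treated libraries, against 20.6, 14.5 and 17.2 in WT (log2 fold change -2.28 ± 0.46 SE, limma adjusted p = 0.0109). Col4a2 fell at 37.22 kb, with 3.98 and 4.96 in TNF-treated against 17.98, 26.7 and 11.1 in WT (log2 fold change -1.76), and at 91.37 kb, with 6.97 and 9.92 in TNF-treated against 22.3, 20.6 and 19.7 in WT (log2 fold change -1.22). Treated and WT values were apart at all 3. Near the first of these, at 33.77 kb, values of 23.9 and 27.3 in TNF-treated and 73.6, 59.4 and 22.1 in WT overlapped through WT library 3 and did not pass (limma adjusted p = 0.0851). Col4a3, the partner of Col4a4 in specialised basement membranes, had 3.98 and 2.48 in TNF-treated against 18.8, 15.2 and 12.3 in WT at 11.11 kb (log2 fold change -1.96). At 76.48 kb it had 9.95 and 1.24 in TNF-treated against 27.4, 24.4 and 17.2 in WT (log2 fold change -2.25 ± 0.62 SE, limma adjusted p = 0.0109), and there the treated libraries differed, so that the log2 fold change was -3.40 without the identical pair and -1.11 without library 3. Col4a4 had 11.9 and 3.72 in TNF-treated against 42.8, 28.9 and 18.4 in WT (log2 fold change -1.91 ± 0.51 SE), and -1.18 without TNF-treated library 3, which did not pass. Within 1 Mb of the Col4a1 and Col4a2 regions 24 or 25 other regions were listed as lower and 3 as higher.

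FACIT genes after TNF differed by gene. All 3 FACIT gains lay in Col19a1, a collagen of embryonic muscle and brain, at 129.62 kb, 226.05 kb and 323.17 kb from its start. At 129.62 kb, TNF-treated libraries held 103 and 105 normalized reads, against 53.9, 44.9 and 83.5 in WT (log2 fold change 0.81 ± 0.24 SE, limma adjusted p = 0.0119). At 226.05 kb they held 124 and 172, against 107, 86.8 and 101 in WT (log2 fold change 0.58, or 0.34 and not passed without TNF-treated library 3). At 323.17 kb they held 177 and 166, against 127, 131 and 141 in WT (log2 fold change 0.37). No values overlapped, and 8 or 9 other regions within 1 Mb were listed as higher and 1 as lower. Each of the 3 gains missed the threshold without at least 1 of the 2 distinct treated libraries. A region nearer the start, with 258 and 257 in TNF-treated against 220.0, 202 and 229.8 in WT, did not pass (limma adjusted p = 0.0558). The gain at 323.17 kb and this last region were among 3 collagen regions whose authors' p lay more than 10 times below counting error. Col12a1 fell at 2 places, with 3.98 and 7.44 in TNF-treated against 13.7, 18.3 and 14.7 in WT at 25.53 kb and 8.96 and 3.72 in TNF-treated against 23.1, 19.04 and 15.97 in WT at 116.18 kb (log2 fold changes -1.34 and -1.56, neither passing without 1 of the 2 distinct treated libraries). Col16a1 had 33.9 and 32.2 in TNF-treated against 77.9, 68.6 and 62.7 in WT (log2 fold change -1.05 ± 0.20 SE, limma adjusted p = 0.0109).

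Other collagens after TNF gave 12 losses and 4 gains among 16 regions. Col7a1 had 1.99 and 2.48 normalized reads in TNF-treated libraries, against 18.8, 13.7 and 9.83 in WT (log2 fold change -2.19 ± 0.49 SE, limma adjusted p = 0.0109). Col8a2 had 1.99 and 3.72 in TNF-treated against 13.7, 18.3 and 8.60 in WT (log2 fold change -1.89), and the transmembrane collagen Col13a1 6.97 and 12.4 in TNF-treated against 30.8, 35.04 and 17.2 in WT (log2 fold change -1.41). Treated values were lower without overlap in all 3 genes. The 2 multiplexin genes held both directions. Col18a1 rose at 11.67 kb from the start of its short transcript, with 98.5 and 75.6 in TNF-treated against 51.4, 46.5 and 56.5 in WT (log2 fold change 0.74 ± 0.20 SE, limma adjusted p = 0.0109), and fell at 2 places nearer the start of the long transcript, with log2 fold changes of -1.42 and -1.35. Of the 34 other regions listed within 1 Mb of this gain, 33 were lower. Col15a1 fell at 36.77 kb, with 3.98 and 7.44 in TNF-treated against 17.1, 14.5 and 15.97 in WT, and rose at 48.32 kb, with 123 and 124 in TNF-treated against 89.04, 88.4 and 95.8 in WT (log2 fold changes -1.38 and 0.44). Neither Col15a1 call held without the identical pair, and at the Col15a1 gain the authors' p lay more than 10 times below counting error. Col25a1 rose at 226.28 kb, with 144 and 186 in TNF-treated against 79.6, 78.5 and 109 in WT (log2 fold change 0.89 ± 0.19 SE, limma adjusted p = 0.0109), and fell at 344.98 kb and 371.86 kb (log2 fold changes -1.62 and -1.15). Col6a6 rose at 88.79 kb, with 32.9 and 23.6 in TNF-treated against 16.3, 12.2 and 4.91 in WT (log2 fold change 1.38, not passed without the identical pair), and fell at 112.71 kb and 123.24 kb (log2 fold changes -1.36 and -1.48). Col23a1 fell at both of its regions (log2 fold changes -1.02 and -1.93). Without the identical pair the calls at Col13a1, at the Col18a1 gain, at 63.58 kb of Col23a1 and at 371.86 kb of Col25a1 also missed the threshold, as did that at 344.98 kb of Col25a1 without TNF-treated library 3.

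Regions of different tables overlapped by at least 1 bp in 7 pairs of collagen regions, all with the same sign. The share of pairs with the same sign among overlapping regions of other genes is not given. Of the 7 collagen pairs, 3 (Col16a1, Col5a3 and Col7a1, at 8 weeks and after TNF) rest on the same WT libraries and are not independent. The other 4 came from different libraries. The Col5a3 gain of 11 weeks (chromosome 9, positions 20604251 to 20605150, mm9) shared 900 bp with that of 3 weeks, with means of 81.01 ± 37.1 in Tg197 against 35.8 ± 1.95 in WT at 11 weeks and 112 ± 9.61 in Tg197 against 60.8 ± 10.02 in WT at 3 weeks (SD, n = 3 each). Col5a3 lies in the first 25 Mb of chromosome 9, which held 232 listed regions at 3 weeks (61 higher, 171 lower). At 11 weeks this stretch held 124 (45 higher, 79 lower). Groups did not overlap at 94.0% and 97.6% of these, beside 86.1% and 83.7% of all listed regions. The part of this stretch in the Col5a3 gains was not tested. The Col14a1 losses of 8 weeks (chromosome 15, positions 55227201 to 55227700) and 11 weeks shared 450 bp. The 3-week loss (chromosome 15, positions 55227901 to 55228400) lay next to these without overlapping them, so that neighbouring sequence about 88.15 kb into the gene was lower at each age. Col16a1 was lower at 8 and 11 weeks over 100 bp in common. The last pair, at Col27a1, shared 50 bp, and its 3-week member did not pass. That member had a log2 fold change of -0.025 with all libraries and 0.017 without WT library 2. Values were normalized separately in each table, so levels cannot be set across ages.

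**Figure D3:**
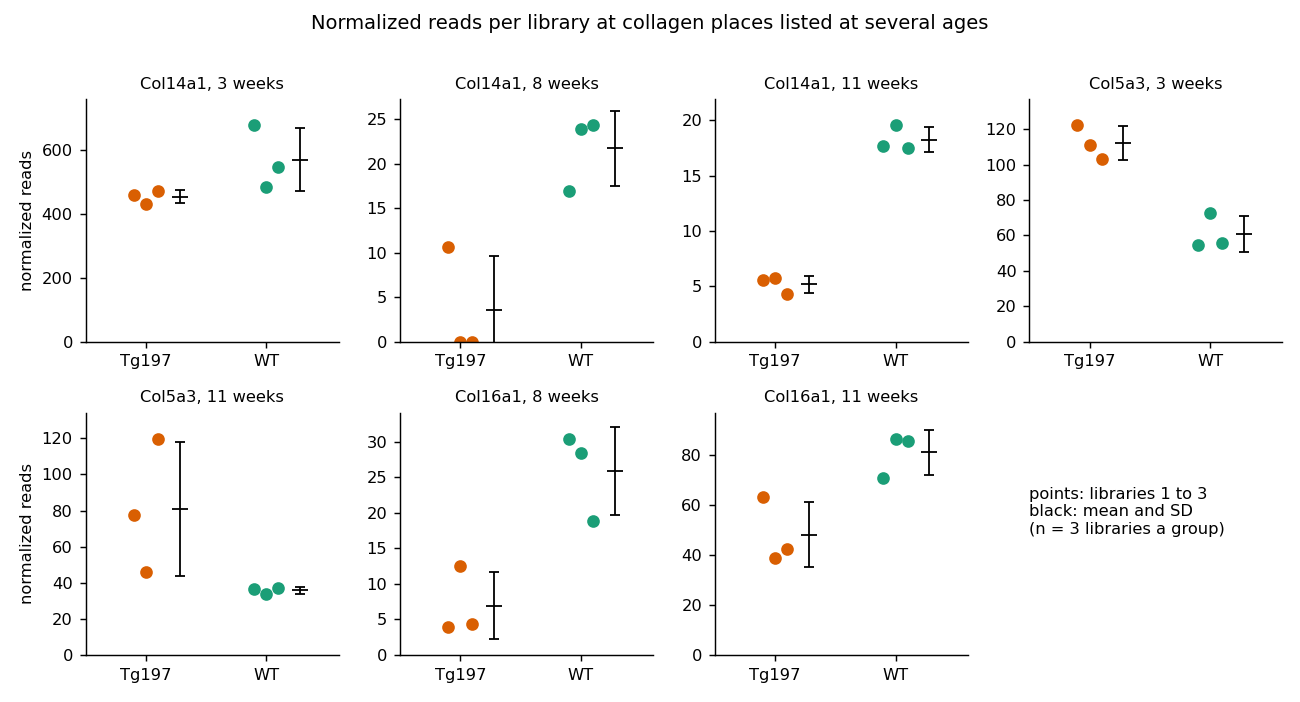
Normalized reads per library at places listed at more than 1 age, in Tg197 (left, orange) and WT (right, green), with the mean and SD of 3 libraries in black. The Col14a1 region of 3 weeks is an exception, as it lies beside those of 8 and 11 weeks without overlapping them. Each vertical axis starts at 0 and has its own range. At Col14a1 all Tg197 libraries lie below all WT libraries at 3, 8 and 11 weeks, at Col5a3 all lie above at 3 and 11 weeks, and at Col16a1 all lie below at 8 and 11 weeks.

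Of the 10 genes with 5 or more regions, 9 held both gains and losses over the 4 tables, and Col19a1 held 3 gains and 3 regions that did not pass. The 4 tables differ in the sign of their medians, and no such count is given for other genes with as many regions. In Col25a1 the 6 regions of the 3 Tg197 tables were all higher, from 32.56 kb to 328.46 kb from its start, and in Col16a1, a gene with fewer regions, all 4 were lower. In Col4a2, higher regions of 3 weeks at 34.55 kb and 96.92 kb lay near places at 37.22 kb and 91.37 kb that were lower after TNF, without overlapping them. Nearer still to the region at 34.55 kb lay one at 33.77 kb that did not pass after TNF (limma adjusted p = 0.0851).

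**Figure D4:**
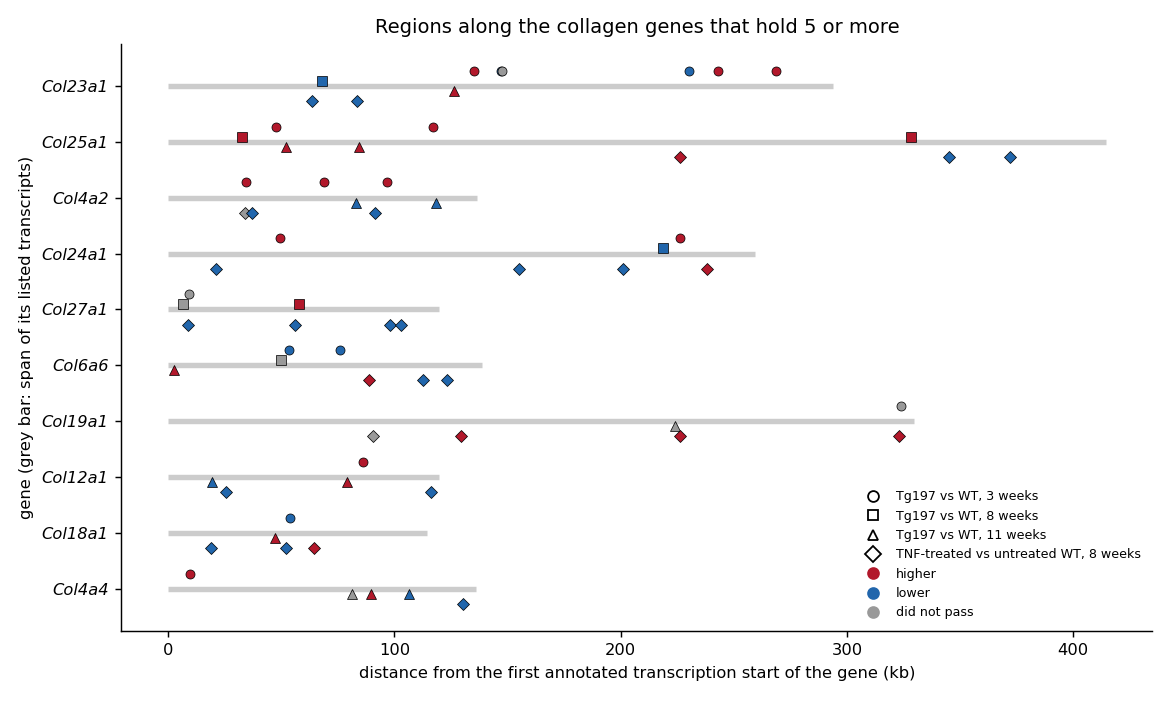
Position of each region along the 10 collagen genes with 5 or more regions, as distance in kb from the first annotated start of the gene, with grey bars for the span of the listed transcripts. Symbols give the table, red marks regions higher in Tg197 or TNF-treated fibroblasts than in WT, blue lower and grey not passing; Col23a1 carries 10 regions and Col25a1 9, and red and blue both occur in 9 of the 10 genes.

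Promoter regions were few, with 3 among 113. The upstream 250 bases of these 3 genes (RefSeq, GRCm38.p6) are shown since capture needs CpG; bases are in lower case and each CpG in capitals, 5' to 3' on the gene's strand. The windows lie at chr4:121039316-121039565 (plus strand) for Col9a2, chr10:77113706-77113955 (minus strand) for the short Col18a1 transcript and chr9:105828086-105828335 (minus strand) for Col6a6. Coordinates of listed regions are in mm9, so the windows were tied to the regions by distance from the start and not by position.
Col9a2 promoter: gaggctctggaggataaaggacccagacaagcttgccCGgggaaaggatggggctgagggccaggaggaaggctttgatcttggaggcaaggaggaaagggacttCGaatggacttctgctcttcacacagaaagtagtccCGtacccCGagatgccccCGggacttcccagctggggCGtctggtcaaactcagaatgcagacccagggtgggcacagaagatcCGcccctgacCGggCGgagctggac
Col18a1 promoter: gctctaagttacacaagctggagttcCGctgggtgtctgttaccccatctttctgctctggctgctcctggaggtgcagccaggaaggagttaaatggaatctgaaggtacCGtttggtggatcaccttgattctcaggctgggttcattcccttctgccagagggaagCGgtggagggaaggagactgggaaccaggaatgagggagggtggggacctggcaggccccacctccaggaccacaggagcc
Col6a6 promoter: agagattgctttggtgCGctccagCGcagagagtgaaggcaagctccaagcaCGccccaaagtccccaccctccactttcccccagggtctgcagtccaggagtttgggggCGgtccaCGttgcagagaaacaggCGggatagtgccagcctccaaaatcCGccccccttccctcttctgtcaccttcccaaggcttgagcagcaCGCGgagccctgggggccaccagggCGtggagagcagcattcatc

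These windows hold 9 CpG in Col9a2, 3 in Col18a1 and 10 in Col6a6, where the median over all 32851 RefSeq windows was 6 (quartiles 2 and 16). Among the 38 windows of the 35 collagen genes that the table holds (26 of the 30 genes with a listed region), the count ran from 0 to 31, with a median of 9.5. The motif GGGCGG, read on both strands, occurred 2 times in Col9a2 and in Col6a6 and 0 times in Col18a1. It was present in 32.7% of all windows and in 57.9% of the collagen windows. Col9a2, which encodes a cartilage FACIT chain, was the only gene whose listed region reached into the window, from 919 to 70 bases before the annotated start (chromosome 4, positions 120711251 to 120712100, mm9). Tg197 libraries held 5.30, 13.8 and 5.88 normalized reads there at 8 weeks, against 54.1, 41.95 and 9.95 in WT (log2 fold change -1.78 ± 0.69 SE, limma adjusted p = 0.0584). This did not pass, and WT library 3 lay among the Tg197 values. The Col18a1 region centred 1.02 kb downstream of the short transcript's start had 144, 176 and 146 in Tg197 at 3 weeks, against 213, 204 and 203 in WT (log2 fold change -0.41 ± 0.09 SE, limma adjusted p = 0.00195), a loss without overlap. The authors' adjusted p for this Col18a1 region was 0.185, and the loss did not reach the alternative minimum log2 change of 0.5. The Col6a6 region 2.61 kb downstream of its start had 51.9, 27.5 and 51.7 in Tg197 at 11 weeks, against 19.04, 16.8 and 19.5 in WT (log2 fold change 1.15 ± 0.31 SE, limma adjusted p = 0.0219), a gain without overlap.

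The median read level differed with direction, and not in the same way in each table. At 3 weeks collagen regions listed as higher had a median of 56.9 normalized reads in the higher group and those listed as lower 268.8, and at 11 weeks these medians were 43.7 and 72.4. At 8 weeks the order was the other way, with 66.9 in regions listed as higher and 21.2 in those listed as lower, and after TNF with 123.7 and 23.4. All regions of the same tables showed the same order (39.5 and 259.6 at 3 weeks, 33.1 and 105.2 at 11 weeks, 121.7 and 30.9 at 8 weeks, 114.1 and 26.2 after TNF), so it was not particular to collagen genes. The part of read level in the direction of a region was not tested.

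**Figure D5:**
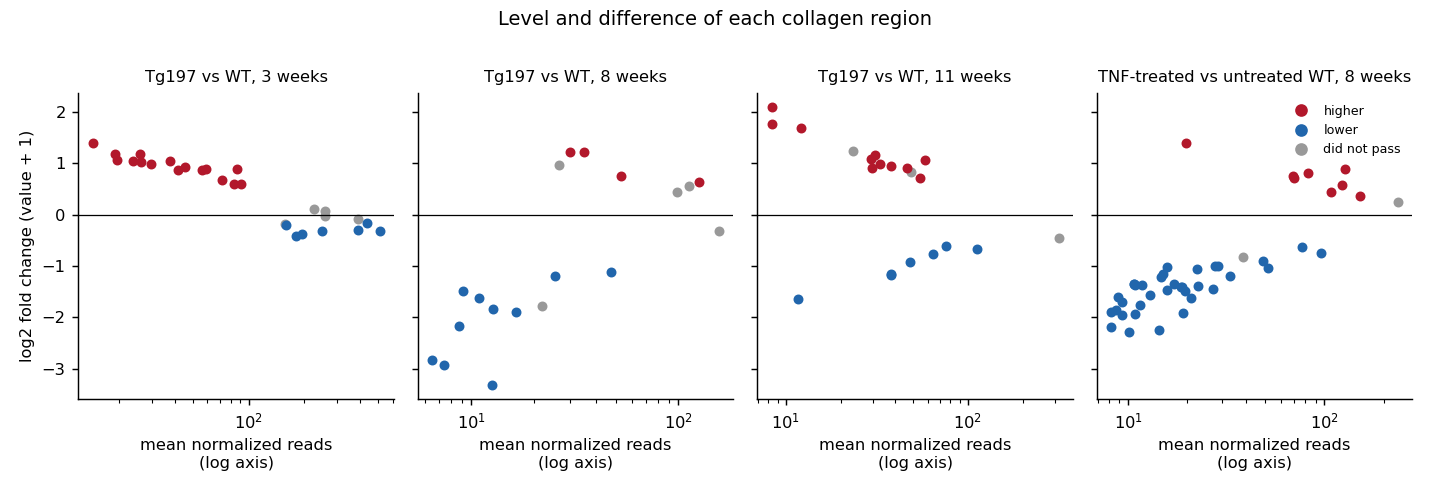
Log2 fold change (value + 1) of each collagen region against its mean normalized reads over both groups (log axis), by table, with red for higher and blue for lower in Tg197 or TNF-treated than in WT and grey for not passing. Higher regions mostly sit at lower levels than lower regions at 3 weeks, and mostly at higher levels at 8 weeks and after TNF. At 11 weeks the levels of higher and lower regions mix, and the loss at Col14a1 is among the lowest.

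Genes that make, modify, bind or degrade collagen went in both directions at the 3 ages and mostly down after TNF, as gene bodies of other genes did. Of a list of 66 such gene names, regions passing limma numbered 15 higher and 13 lower of 32 at 3 weeks, 2 higher and 5 lower of 15 at 8 weeks, 12 higher and 4 lower of 18 at 11 weeks, and 8 higher and 36 lower of 47 after TNF. These counts are 46.9% higher and 40.6% lower at 3 weeks, 13.3% and 33.3% at 8 weeks, 66.7% and 22.2% at 11 weeks, and 17% and 76.6% after TNF. In gene bodies of other genes than collagens the shares were 42.5% and 42.2%, 12.5% and 47.3%, 53.6% and 24.7%, and 20.2% and 73.4% in the same order. The groups of genes within the list are small, and their counts are given as values to be read against these shares. Modifying enzymes and chaperones gave 6 gains and 3 losses among 12 regions at 3 weeks. P4ha1, a prolyl hydroxylase subunit needed for a stable helix, rose there at 2 places, the stronger with 25.9, 22.6 and 20.8 normalized reads in Tg197 against 5.63, 10.9 and 6.82 in WT (log2 fold change 1.5). Degraders gave 3 gains of 3 at 3 weeks, at Mmp8, a collagenase, with 55.1, 51.9 and 47.5 in Tg197 against 15.02, 23.5 and 28.4 in WT, at Mmp9, a gelatinase, with 69.1, 89.6 and 97.9 in Tg197 against 54.5, 47.96 and 56.8 in WT, and at Mmp14, a membrane-bound collagenase, with 106, 101 and 89.02 in Tg197 against 59.2, 67.9 and 52.3 in WT. The Mmp8 and Mmp9 regions lay within 3 kb of a start, and their log2 fold changes were 1.21 and 0.67. Mmp8 lies in the first 25 Mb of chromosome 9, where 61 of 232 listed regions were higher at 3 weeks. At 8 weeks Serpinh1, the collagen chaperone HSP47, had 5.30, 2.77 and 10.3 in Tg197 against 16.1, 18.7 and 13.3 in WT and did not pass (limma adjusted p = 0.0509), while Crtap, a prolyl 3-hydroxylation cofactor, fell with 6.63, 3.46 and 7.35 in Tg197 against 17.8, 17.2 and 14.4 in WT (log2 fold change -1.40). At 11 weeks the genes for propeptide processing and cross-linking gave 7 gains and 4 losses among 12 regions, among them Bmp1, a procollagen C-proteinase, with 34.3, 27.5 and 62.9 in Tg197 against 17.7, 14.9 and 22.4 in WT at its passing region. Adamts2, a procollagen N-proteinase, rose at 3 of its 4 regions at that age and fell at 1. After TNF the same set gave 4 gains and 15 losses among 19 regions, collagen receptors 2 and 7 among 10, and fibril-binding partners 4 losses among 4. P4ha1 fell there, with 9.95 and 3.72 in TNF-treated against 23.97, 23.6 and 17.2 in WT (log2 fold change -1.64).

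Markers of other cell types of the joint can be read here only as methylation regions. Regions at the chondrocyte genes Acan, Sox9, Col2a1 and Matn3 gave 2 gains of 3 at 3 weeks, 1 gain of 2 at 11 weeks and 4 losses of 4 after TNF. Col2a1 is itself one of the collagens above. Other lists differed at 3 weeks. Synovial fibroblast genes gave 1 gain and 1 loss of 3, and macrophage and osteoclast genes 0 and 2 of 2. Endothelial genes gave 0 and 2 of 4, and muscle genes 3 and 7 of 13. After TNF these lists gave 0 and 1 of 1, 1 and 3 of 4, 0 and 3 of 3, and 6 and 3 of 10. Over the lists for synovial fibroblasts, macrophages and osteoclasts, endothelium, cartilage and muscle together, 6 regions were higher and 12 lower of 25 at 3 weeks, 1 and 2 of 11 at 8 weeks, 5 higher of 8 at 11 weeks, and 7 and 14 of 22 after TNF. Muscle genes held 13 of these regions at 3 weeks and 9 at 8 weeks, so they weigh heavily in the pooled counts. Over all listed regions 40.3% were higher and 44.7% lower at 3 weeks, 17.4% and 36.6% at 8 weeks, 49.7% and 28.2% at 11 weeks, and 29.8% and 64.1% after TNF, so that losses at marker genes after TNF (63.6%) were about as frequent as in the whole table. Methylation of such genes does not count cells, and the part of cell mixture in the collagen values was not tested.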

How the data were processed

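Methyl-CpG capture libraries of 21 samples in 7 groups were analysed from 4 tables of differentially methylated regions. Per the labels' protocols, DNA of about 250 bp was captured with an MBD protein, low- and high-salt eluates were combined, and 100 bp paired ends were read. The submitters' processing notes name mm9, BWA, TopHat, TopHat2, Cufflinks and Cuffdiff without a role; the region caller and its test are not stated. The deposited tables hold normalized signal per library and group, and the authors' log2 fold changes and p-values. Values were whole multiples of 1 read (within 0.1) at 100% of regions, which gave 385155 to 2875554 reads per library in listed regions.

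Regions were annotated by the authors, and a promoter here means within 3 kb of a start. Limma 3.58.1 (R 4.3.3) (with its mean trend option) was run on log2(value + 1) over each whole table, with Benjamini-Hochberg adjustment over the table and a threshold of 0.05. The fold change is on that scale, so in regions with few reads its size depends on the added 1 and on single low libraries. It could be smaller than the authors' log2 fold change, as at Col11a2 at 8 weeks (-2.82 against -3.06). It could also be larger, as at Col14a1 at 8 weeks (-3.31 against -2.62). The identical TNF-treated libraries counted as 1. Libraries carry no replicate number and are named by their place in the deposited cells. Neighbours are regions of other genes or of no gene listed within 1 Mb. Alternatives were pseudocounts of 0.1 and 5, a minimum mean of 10, a minimum log2 change of 0.5, autosomes only, limma voom on recovered reads, omission of regions whose p lay over 10 times below counting error, and omission of each library. Scripts were tested on simulated data. The members and lists were chosen with earlier results of these data known. Regions named by rule were promoter regions, up to 3 passing regions per direction, class and table in order of the authors' p, genes in 3 or more tables, and overlapping pairs, which covered 105 of the 113 regions. Values of every library are given for most of these, fold changes for the rest, and the remaining regions were named after their values were seen. Promoter windows and gene classes used RefSeq symbols; 26 of 30 genes had a window. The genome sequence of mm9 was not used here.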

Additional observations from a re-analysis of the deposited data

How the results depend on the processing

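Counts of collagen regions passing limma held under most settings. At 3 weeks they ran from 21 to 23 of 28 when 1 library was left out. At 8 weeks they ran from 0 to 18 of 19, and with a pseudocount of 0.1 the count was 0, when 14 regions had an unadjusted p under 0.05 and limma voom called 12. At 11 weeks they ran from 0 to 16 of 21, against 17 by limma voom. In the TNF table they ran from 27 to 45 of 45. The cause was not tested. A minimum log2 change of 0.5 changed the 3-week split to 16 higher and 0 lower, and leaving out regions with p below counting error to 16 and 3. The remaining settings kept each count within 1.5 times. Of single regions, 2 changed sign, neither passing: Col27a1 at 3 weeks ran from -0.047 to 0.017 and was above 0 without WT library 2, and Col4a6 at 8 weeks ran from -0.042 to 0.873 and was below 0 without Tg197 library 1 (log2 fold changes). No paired analysis was possible because the deposited cells carry no replicate number. One read was worth up to 1.47 normalized reads (8 weeks, Tg197 library 3), which limits the precision of regions with few reads.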
